A study of Mus musculus with 12 samples.

Results

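The regions described here held open chromatin in the cells without detectable FoxA2 in both genotypes, and in none of the 4 lists from cells with FoxA2. The assay was ATAC-seq, where a transposase cuts and tags accessible DNA for sequencing, run on cells of mouse embryos at embryonic day 7.5. The authors' 6 peak lists were merged on chromosomes 1 to 19 into 93083 union regions, a union region being a set of peaks that overlap by at least 1 bp. A member region had a peak in both Negative lists and no peak in the 4 High and Middle lists. There were 2695 members, or 2.90% of the union regions, and they covered 1381 kb of the 56.4 Mb of all union regions. Members were selected on the presence and absence of peaks, so their counts and peak strengths are given as descriptions, and no test was made on them.

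The embryos were homozygous for a knock-in allele of Foxa2 that joins the protein to the red fluorescent protein tagRFP. In the WT groups the protein was otherwise unaltered, and in the dHx groups it lacked 10 residues of an alpha helix. Both lines were kept on a mixed C57Bl6/J x CD-1 background, embryos of both sexes were mixed without sexing, and about 10 embryos were dissociated per sort after the extraembryonic portion had been removed. Sorting gates were set against wild-type and heterozygous embryos, and the High gate (above heterozygous intensity), the Middle gate (up to it) and the Negative gate (no detectable tagRFP) each gave 2 samples per genotype. The 12 samples of 2000 to 5000 cells each thus formed 6 groups, and each group was represented by 1 list from its pooled samples. No spread between replicates could be measured, no difference between lists was tested, and all intervals below are Clopper-Pearson 95% intervals that cover counting error only.

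FoxA2 belongs to the forkhead family of transcription factors, is made in definitive endoderm, node and notochord, and can engage sites in closed chromatin, a property that defines a pioneer factor. Most other cells of the embryo at this stage, including epiblast, neural plate and the mesoderm that leaves the primitive streak, are known for other factors. Open chromatin away from promoters often marks enhancers, and the genes that pattern the mesoderm and the neural plate, the Hox genes among them, are known to be controlled by many such elements.

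A few members lay on promoters of genes that pattern the embryo. Sequences were taken from a RefSeq table (GRCm38.p6, which corresponds to mm10) that holds windows from 250 bases before to 50 bases after the start of transcription. Members overlapped 166 of the 31396 windows (0.529%), which belonged to 150 genes and 138 member regions. Among the genes of the lists described later, 10 had a window that a member overlapped. They were Zic1, Hoxd11, Prrx1, Hoxb1, Bmp8b, Hoxd1, Hoxb4, Ripply2, Sox1 and Tcf21. The 6 with the highest ranking members are printed to show what an accessible promoter of this kind looks like. Only the bases before the start that the member covered are given, 5′ to 3′ on the strand of the gene. Capitals mark the CCAAT box and the GC box (GGGCGG), a pair of common promoter motifs, each read on either strand, so that a box on the other strand appears as ATTGG or as CCGCCC.
Zic1: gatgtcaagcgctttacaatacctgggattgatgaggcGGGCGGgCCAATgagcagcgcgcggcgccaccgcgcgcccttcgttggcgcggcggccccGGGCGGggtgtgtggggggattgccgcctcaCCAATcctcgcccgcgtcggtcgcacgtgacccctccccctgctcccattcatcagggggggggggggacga
Hoxd11: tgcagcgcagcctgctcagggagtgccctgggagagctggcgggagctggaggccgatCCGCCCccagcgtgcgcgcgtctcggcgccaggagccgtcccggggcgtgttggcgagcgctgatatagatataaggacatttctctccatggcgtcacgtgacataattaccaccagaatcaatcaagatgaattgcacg
Prrx1: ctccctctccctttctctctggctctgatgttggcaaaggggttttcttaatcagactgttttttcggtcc
Hoxb1: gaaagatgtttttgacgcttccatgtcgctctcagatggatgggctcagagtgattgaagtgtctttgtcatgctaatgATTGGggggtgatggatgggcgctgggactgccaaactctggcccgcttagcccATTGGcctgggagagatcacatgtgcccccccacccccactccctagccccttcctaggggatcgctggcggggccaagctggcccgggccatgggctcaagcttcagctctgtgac
Bmp8b: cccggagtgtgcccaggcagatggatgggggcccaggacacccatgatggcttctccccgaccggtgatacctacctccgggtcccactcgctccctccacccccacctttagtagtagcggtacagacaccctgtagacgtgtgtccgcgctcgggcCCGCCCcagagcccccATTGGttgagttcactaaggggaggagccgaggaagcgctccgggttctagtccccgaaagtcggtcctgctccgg
Hoxd1: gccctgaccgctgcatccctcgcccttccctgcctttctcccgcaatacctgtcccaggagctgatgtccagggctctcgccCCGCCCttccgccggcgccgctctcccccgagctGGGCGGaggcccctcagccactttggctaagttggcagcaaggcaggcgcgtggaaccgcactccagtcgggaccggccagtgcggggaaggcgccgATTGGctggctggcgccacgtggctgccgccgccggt

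The Zic1 bases (chr9:91365818-91366018, minus strand, 201 bases) are the upstream side of a gene for a zinc finger factor of the neural plate, and its diverging neighbour Zic4 was the gene nearest to that member. They held 2 CCAAT boxes and 2 GC boxes with a GC content of 71.1%. The Hoxd11 bases (chr2:74682073-74682271, plus strand, 199 bases) and the Hoxd1 bases (chr2:74762730-74762979, plus strand, 250 bases) come from the ends of the Hoxd cluster, which carries posterior genes at one end and anterior genes at the other. Hoxd11 held 1 GC box and no CCAAT box, and Hoxd1 held 2 GC boxes and 1 CCAAT box. The Hoxb1 bases (chr11:96365508-96365757, plus strand, 250 bases) held 2 CCAAT boxes and no GC box. The Prrx1 bases (chr1:163313651-163313721, minus strand, 71 bases) belong to a homeobox gene of limb and lateral mesenchyme, were 47.9% GC and held neither motif. The Bmp8b bases (chr4:123104911-123105160, plus strand, 250 bases) held 1 of each, and Bmp8b has a close paralogue, Bmp8a, so reads at that site may be shared.

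Over all 166 member windows the GC content had a median of 56.2%, between 53.0% over all windows and 63% over the 9174 windows that regions of all 6 lists overlapped. The ratio of observed to expected CpG had a median of 0.379 in member windows, next to 0.389 over all windows. It was 0.396 and 0.385 in windows of regions in the WT or the dHx Negative list only. Windows of regions that were FoxA2-positive in both genotypes had 0.575, and those of regions in all 6 lists had 0.791. Here a region is called FoxA2-positive in both genotypes when each genotype had a peak in its High or Middle list and neither Negative list had one. A GC box was present in 29.5% of member windows (22.7 to 37.1%), against 36.0% of all windows and 70.8% of windows in all 6 lists. A CCAAT box was present in 44.0% of member windows (36.3 to 51.9%), against 37.3% of all windows, 43.2% of windows in all 6 lists and 25.4% of FoxA2-positive windows. The ETS motif CCGGAAG was in 3.61% of member windows (1.34 to 7.70%), against 9.004% of all windows. Of the 29 motifs searched on both strands, that was the only one whose interval in member windows did not hold the share of all windows. The forkhead motif TGTTTGC was in 4.22% of member windows (1.71 to 8.50%), 5.09% of all windows and 9.51% of FoxA2-positive windows. The other forkhead form searched, TGTTTAC, differed less. It was in 3.01% of member windows (0.985 to 6.89%), 3.71% of all windows and 4.90% of FoxA2-positive windows. These shares describe letters in the window only.

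Most members lay away from promoters. Within 1 kb of a transcription start lay 9.76% of members (8.65 to 11.0%), on the 2622 members of chromosomes that the promoter table covers. The share was 9.25% in FoxA2-positive regions, 16.9% in all union regions and 54.8% in regions of all 6 lists. Inside or overlapping a protein-coding gene lay 1283 members (47.6%, 45.7 to 49.5%), against 54.5% of FoxA2-positive regions and 76.8% of regions in all 6 lists. A further 366 members (13.6%, 12.3 to 14.9%) had no protein-coding gene within 100 kb, against 11.5% of FoxA2-positive regions and 4.39% of regions in all 6 lists. Members outside genes that had one within 100 kb lay at a median distance of 14.6 kb from it. Regions found in 1 Negative list only were placed much like members, with 47.1% (WT) and 43.2% (dHx) inside or overlapping a gene.

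**Figure D1:**
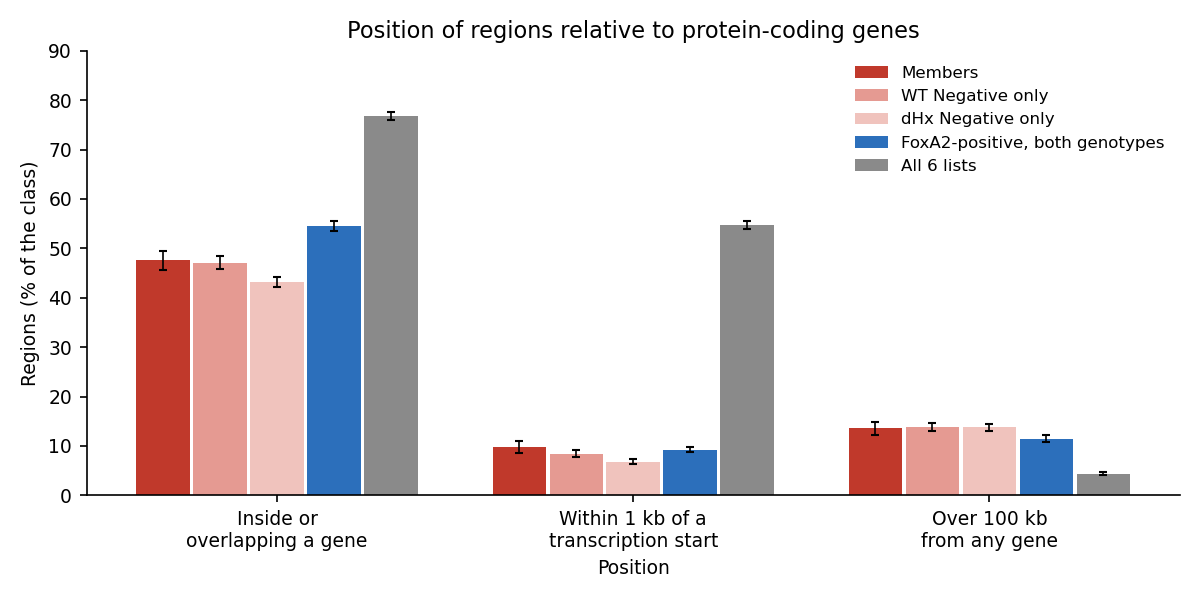
Share of regions (%, vertical axis) in 3 positions relative to protein-coding genes for members, regions of 1 Negative list only, FoxA2-positive regions and regions of all 6 lists; whiskers are Clopper-Pearson 95% intervals. Members stand at 9.76% within 1 kb of a transcription start, where regions of all 6 lists stand at 54.8%.

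The Negative lists of the 2 genotypes shared more regions that no other list held than any other pair of lists. Of the 26235 regions with a peak in both Negative lists, members made up 10.3% (9.91 to 10.6%). The like share in no other list was 8% (7.67 to 8.34%) for both Middle lists and 7.33% (7.01 to 7.67%) for both High lists. Among the 15901 regions with a peak in exactly 2 lists, the members were the most frequent of 15 pairs (16.9%). The same gate in the other genotype also gave the next pairs, with 2024 regions in WT Middle and dHx Middle only and 1811 in WT High and dHx High only. The least frequent pair was WT Negative with dHx Middle, with 298 regions. By the product of their lengths the Negative lists ranked 4th of the 15 pairs.

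**Figure D2:**
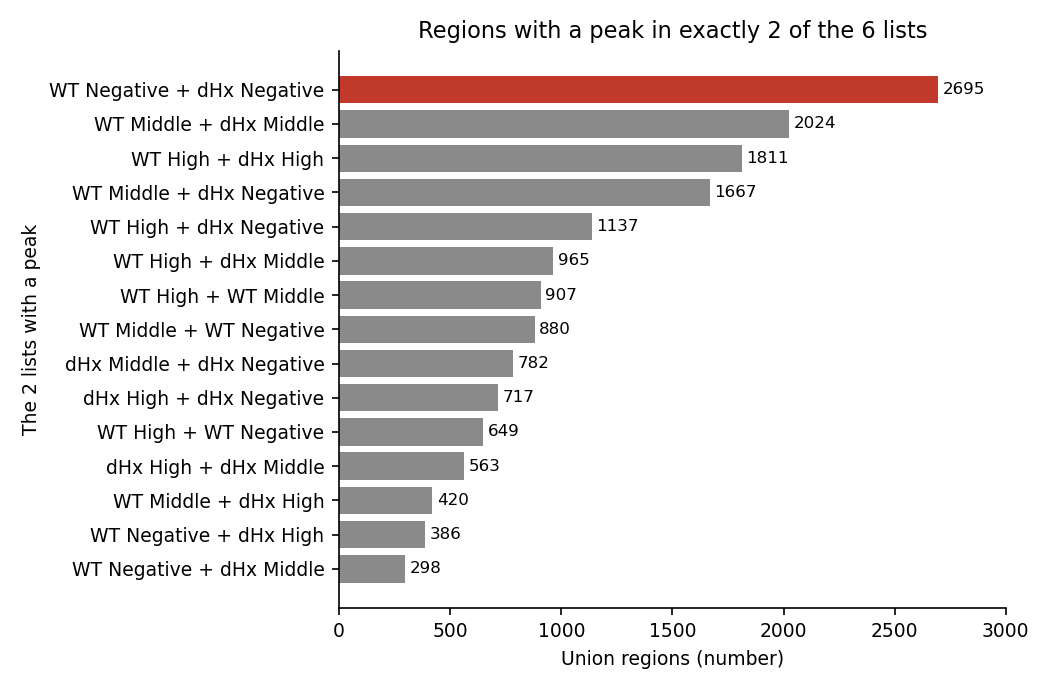
Number of union regions (horizontal axis) with a peak in exactly 2 of the 6 lists, 1 bar per pair of lists, members in red. The 2695 members form the longest bar and the 3 pairs that share a gate across genotypes come first.

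Regions in the Negative list of 1 genotype and in neither of its other lists often had no peak in the other genotype. The whole Negative lists held 36803 regions in WT and 46387 in dHx, and 26235 regions were in both. The regions counted next were selected for absence from 2 lists of their own genotype. Their shares do not describe the whole Negative lists. Of 10429 regions in the WT Negative list and in neither WT High nor WT Middle, 25.8% (25.003 to 26.7%) were members, 55.5% had no peak in any dHx list, and 7.56% had peaks in dHx High or Middle only. Of the 19666 regions of the dHx Negative list without dHx High or Middle, 13.7% (13.2 to 14.2%) were members, 54.0% had no WT peak, and 17.0% had peaks in WT High or Middle only.

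Members were mostly weak and narrow among the regions of both Negative lists. The authors' score of a peak, a −log10 value of its significance (p or q), had a median of 5.09 in the WT Negative list and 5.41 in the dHx Negative list over members. Over all regions of both Negative lists the medians were 8.13 and 11.2. Since scores grow with depth, each was also ranked within its list, and the median member stood at percentile 39.8 in WT Negative and 43.0 in dHx Negative. Regions of 1 Negative list only ranked lower, at a median percentile of 17.0 (WT) and 25.7 (dHx). At or above the median score of both Negative lists lay 624 members (23.2%). The median width of members was 460 bp, next to 451 bp over all union regions. It was 854 bp in all regions of both Negative lists, 1044 bp in regions of all 6 lists and 514 bp in FoxA2-positive regions. Regions of the WT or the dHx Negative list only had medians of 283 and 285 bp. Across members the ranks in the 2 lists had a Spearman correlation of 0.305, and 0.685 across all regions of both lists, where all points come from the same pair of pooled lists.

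When regions of both Negative lists were cut by their mean percentile into 10 bins of near equal size, members made up 786 of the 2624 regions (29.95%) in the weakest bin and 6 of 2624 (0.229%) in the strongest. The limit on weak peaks was not the same in all lists. From the steps between scores, the mean pileup of the background was fitted as 1.08 in WT Negative and 1.57 in dHx Negative, against 0.476 in dHx High, 0.786 in dHx Middle, 0.879 in WT High and 1.496 in WT Middle. By this fit the weakest peak of dHx High stood 6.30-fold over its background. Only the steps were fitted and not the level of the scores, so all folds and floors given here are estimates. In both Negative lists 1115 members (41.4%, 39.5 to 43.3%) reached that fold, as did 19287 of all 26235 regions of both lists, and members made up 5.78% of those 19287 regions, against 10.3% of the 26235. A fold in Negative cells does not give the fold in FoxA2-positive cells, so no member can be told apart from a region that was open there below the floor of a list.

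**Figure D3:**
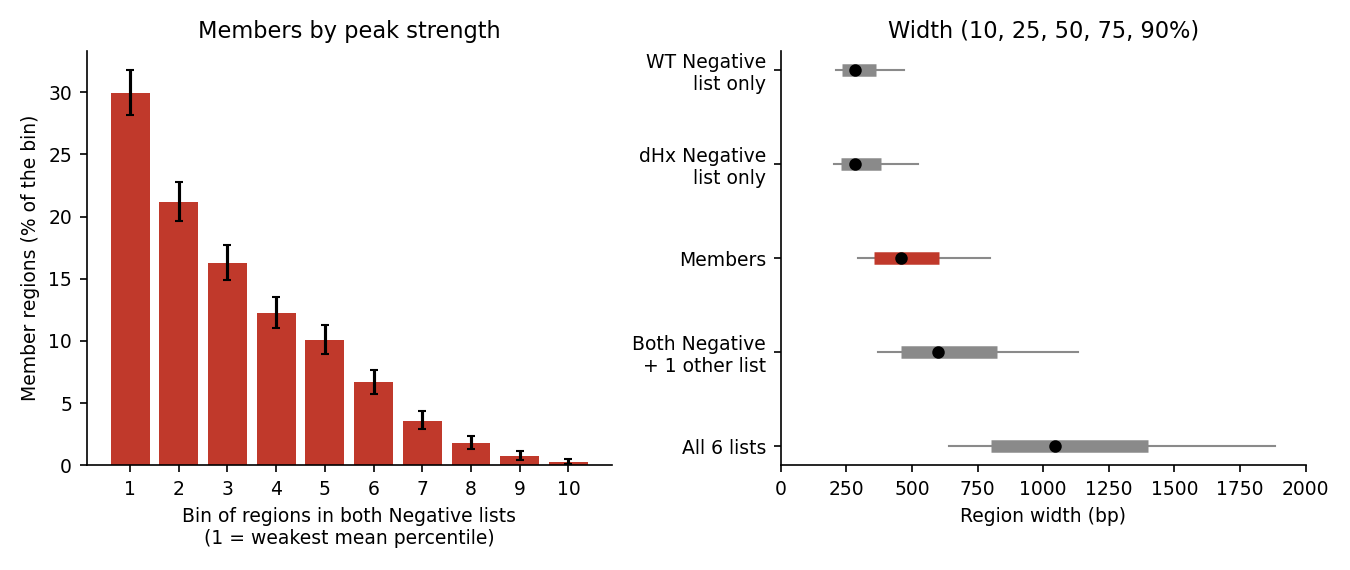
Left, members as a share (%) of each of 10 equal bins of the regions in both Negative lists, ordered by mean within-list percentile, with Clopper-Pearson 95% intervals. Right, width in bp of 5 classes of region (point, median; thick line, 25 to 75%; thin line, 10 to 90%), where members lie at a median of 460 bp.

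Just outside the rule lay 2918 regions with both Negative peaks and exactly 1 High or Middle peak. The added peak was in WT Middle for 1108 of them, in WT High for 879, in dHx High for 557 and in dHx Middle for 374. Their median scores were 5.09 in WT Negative and 6.30 in dHx Negative, next to 5.09 and 5.41 in members. The nearest High or Middle peak was at a median distance of 6.85 kb from a member. It was within 500 bp for 237 members (8.79%) and beyond 10 kb for 1096 members (40.7%).

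For none of the 20 members with the highest mean percentile (86.7 to 98.0) was a listed gene the nearest within 100 kb. Of these, 12 lay outside genes, 4 had no gene within 100 kb, and 1, in Celf3, was within 1 kb of a transcription start. The highest (chr19:3205357-3205941) scored 74.5 in WT Negative and 62.3 in dHx Negative and lay 53.1 kb from Ighmbp2. The next (chr11:112501736-112502322) scored 52.8 and 63.9, and its nearest High or Middle peak was 89.1 kb away. A member 10.9 kb from Man1a2, which encodes a mannosidase of the Golgi, scored 78.0 and 38.7. The highest dHx Negative score of any member, 115, belonged to a region of 283 bp (chr11:5891508-5891790) 4.85 kb from Myl7, the gene of a myosin light chain of the atrial heart muscle, and its WT Negative score was 20.2. In Nrxn3, which encodes a synaptic adhesion protein, the member chr12:88910673-88911270 scored 20.2 and 41.5. Near Obox3, Vmn2r73 and Olfr843, genes of multi-copy families, read placement is uncertain. The same holds for the members near Mup12, Olfr49, Gm16440, Gm3095 and Gm3173 among the 10 widest, which spanned 1547 to 1993 bp.

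Members were spread thinly over genes. The nearest protein-coding gene within 100 kb was assigned to 2329 members, which were 2.82% of the 82732 assigned union regions. At least 1 member was assigned to 1906 of the 17417 genes with a region (10.9%), 1591 of them with a single member. By chromosome, members were between 1.79% (chromosome 17) and 3.60% (chromosome 12) of union regions. No other member lay within 50 kb of 2037 members (75.6%), and 19 runs held 4 or more. Runs of 7 and 8 members fell among the Gm and Mup genes of chromosomes 14 and 4, families of near-identical copies where counts are uncertain.

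Among single genes, Clybl had 7 members of 32 regions, the most of any gene. Clybl encodes a mitochondrial lyase, and its neighbours are Zic5 and Zic2, zinc finger factors of the neural plate. A pair of the 7 members lay within 100 kb of both, the nearest 42.4 kb from Zic5 and 58.6 kb from Zic2. The strongest (chr14:122415746-122416760) scored 17.6 in WT Negative and 26.6 in dHx Negative. Counting all its regions, Clybl had 10, 8 and 20 in WT High, Middle and Negative, and 11, 13 and 22 in the dHx lists in that order.

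Rbms3, which encodes an RNA-binding protein, had 6 members of 57 regions, all inside the gene, with WT Negative scores from 5.09 to 15.1 and dHx Negative scores from 2.24 to 8.19. Gli2, a transcription factor of the hedgehog pathway, had 5 of 30, and all 5 lay in a run of 82.3 kb with 11 union regions. Hlx, a homeobox factor of visceral mesenchyme, had 4 of 19, in a run of 53.9 kb where 4 of 8 regions were members. Casz1, a zinc finger factor of heart and vessel development, had 4 of 23. Lrrn1, which encodes a leucine-rich repeat membrane protein, had 4 of 7. Sdk2 and Nrxn3, which encode neuronal adhesion molecules, had 5 of 29 and 4 of 51. Plekha7, Macrod2 and Cacna2d1 had 4 each, of 39, 64 and 14 regions. Gm3050 (5 of 75) and Mup-ps12 (4 of 67) belong to multi-copy families. Bins of 1 Mb with over 50 union regions, which hold 49.1% of all regions and 44.3% of members, were marked as uncertain. All members of Clybl, Sdk2, Gli2, Tfap2c, Hlx, Plekha7, Casz1, Lef1, Cdh5 and Wnt10a lie in such bins. So do all members of Hand1, Eomes, Lefty2, Gsc, Pax6, Flt1, Cbfa2t3, Egfl7, Pou5f1, Utf1, Krt19, Bmp2 and Smad6. The same mark applies to those of Hoxb1, Hoxb2, Hoxb3, Hoxb4, Nkx2-5, Tcf21, Wnt2b, Bmp8b, Tcf7l1, Pou3f1, Ppia, Gm3050 and Mup-ps12. Among the 20 members with the highest mean percentile, those near Ighmbp2, Myl7 and Celf3 also carry it.

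Foxa2 itself had no member among its 33 regions, of which 7 were FoxA2-positive in both genotypes. Over all assigned regions 2.82% were members and 10.7% FoxA2-positive. At a share of 2.82%, the lack of a member among 33 regions says little about the locus. Regions of the Foxa2 locus were still listed in the Negative cells, 11 in WT and 15 in dHx. Peak lists hold no RNA, so the gate could not be checked by the level of Foxa2.

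For 16 lists of loci with 431 distinct genes, members were counted as a share of the regions nearest to each list. Over the 16 lists, 96 of the 399 listed genes with a region had at least 1 member, and 133 of their 2810 regions (4.73%, 3.98 to 5.58%) were members, against 2.82% of all assigned regions. The median number of members per gene was 0 in every list and over all genes. Of the 96 genes, 68 had 1 member, 21 had 2 and 7 had 3 or 4. Genes stand in several lists, so the lists are not independent of each other.

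**Figure D4:**
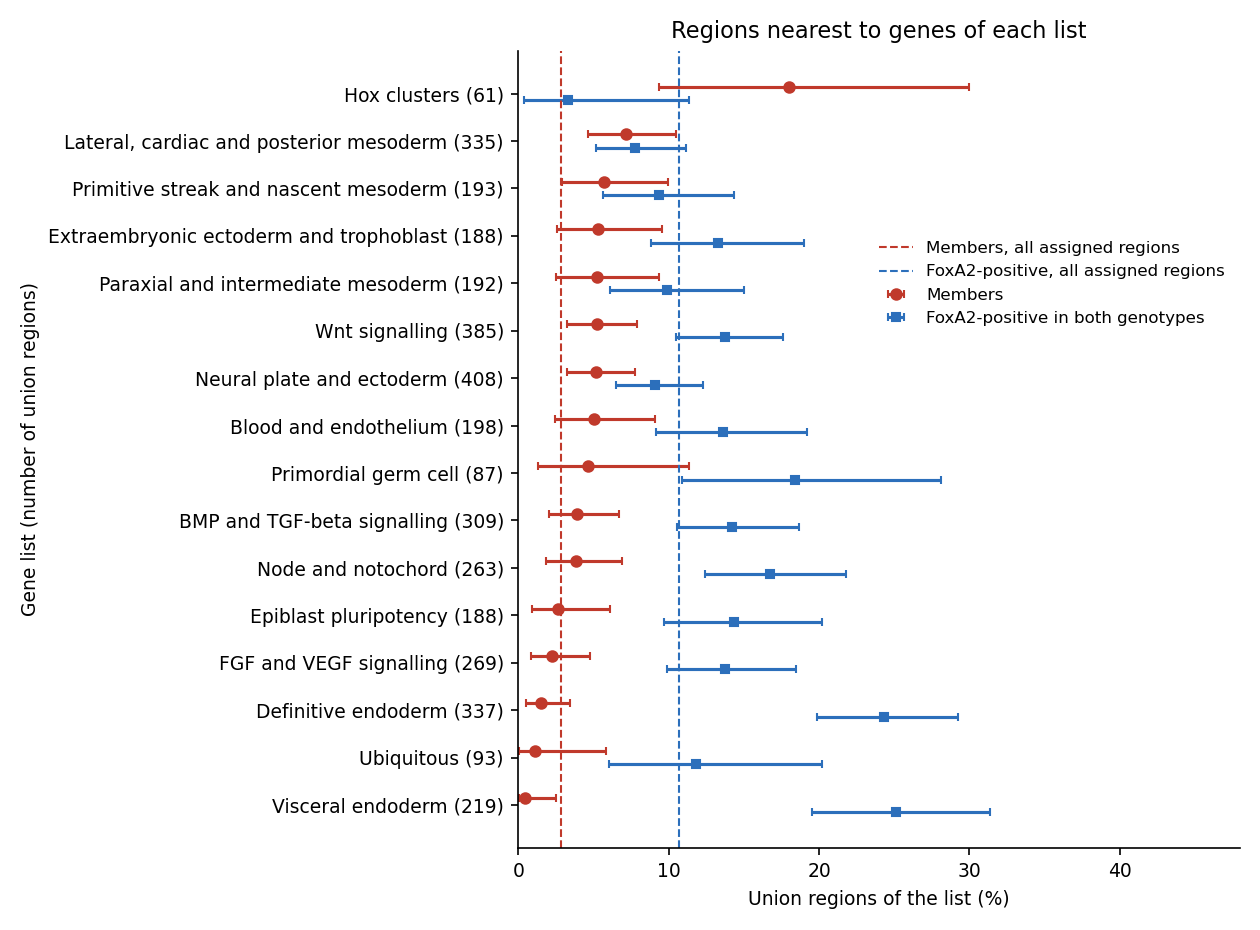
Share (%, horizontal axis) of the union regions nearest to each gene list that were members (red circles) or FoxA2-positive in both genotypes (blue squares), with Clopper-Pearson 95% intervals; dashed lines give the shares over all assigned regions, 2.82% and 10.7%. The Hox list stands at 18.03% members and the visceral endoderm list at 0.457%.

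The Hox genes, homeobox genes that specify position along the trunk, had the highest share of members of the 16 lists when all members were counted. Of their 61 nearest regions, 11 were members (18.03%, 9.36 to 30.0%) and 2 were FoxA2-positive in both genotypes, a class that made up 10.7% of assigned regions. Members were nearest to 9 of the 26 Hox genes with a region. Within the 4 cluster spans themselves, 46 regions held 10 members, 4 in Hoxb, 4 in Hoxd and 1 each in Hoxa and Hoxc. Peaks of the Negative lists lay in 23 (WT) and 28 (dHx) of the 46 regions, against 5 and 8 for WT High and Middle and 5 and 5 for dHx High and Middle. In all, 31 of the 46 regions were in a Negative list and in no High or Middle list, which held for 20.5% of all union regions.

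In Hoxb the 4 members lay near Hoxb1, Hoxb2, Hoxb3 and Hoxb4, the anterior end of the cluster, within 47.8 kb and among 9 union regions. The Hoxb1 member (chr11:96365173-96365838), which covers the promoter printed above, scored 10.3 in WT Negative and 5.41 in dHx Negative. The Hoxb4 member (chr11:96318087-96318888) scored 4.16 and 4.55 and lay 812 bp from Mir10a, a microRNA gene of the cluster. In Hoxd the member at the Hoxd11 promoter (chr2:74681496-74682271) scored 11.5 and 6.30, a member 1.19 kb from Hoxd3 (chr2:74749466-74750298) 7.08 and 4.55, and the member at the Hoxd1 promoter (chr2:74762717-74763057) 9.21 and 2.24. Ranks were uneven among the Hox members. The Hoxd11 and Hoxb1 members stood at percentiles 72.9 and 69.3 in WT Negative and at 49.4 and 43.0 in dHx Negative, whereas the members of Hoxb2 and Hoxb3 stood at 5.47 and 17.0 in WT Negative. The median mean percentile of the 11 was 32.2, against 38.3 over all assigned members, and 1 of the 11 reached the median score of both lists. With only the members that reached the floors of all 4 other lists, 2 of 61 Hox regions were left (3.28%, 0.3996 to 11.3%), an interval that holds the 1.16% of all assigned regions. In that setting the germ cell list (4.598%) and the extraembryonic ectoderm list (3.72%) had higher shares. All 4 members of the germ cell list were at Tfap2c, and the same 4 were among the 7 of the extraembryonic list.

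**Figure D5:**
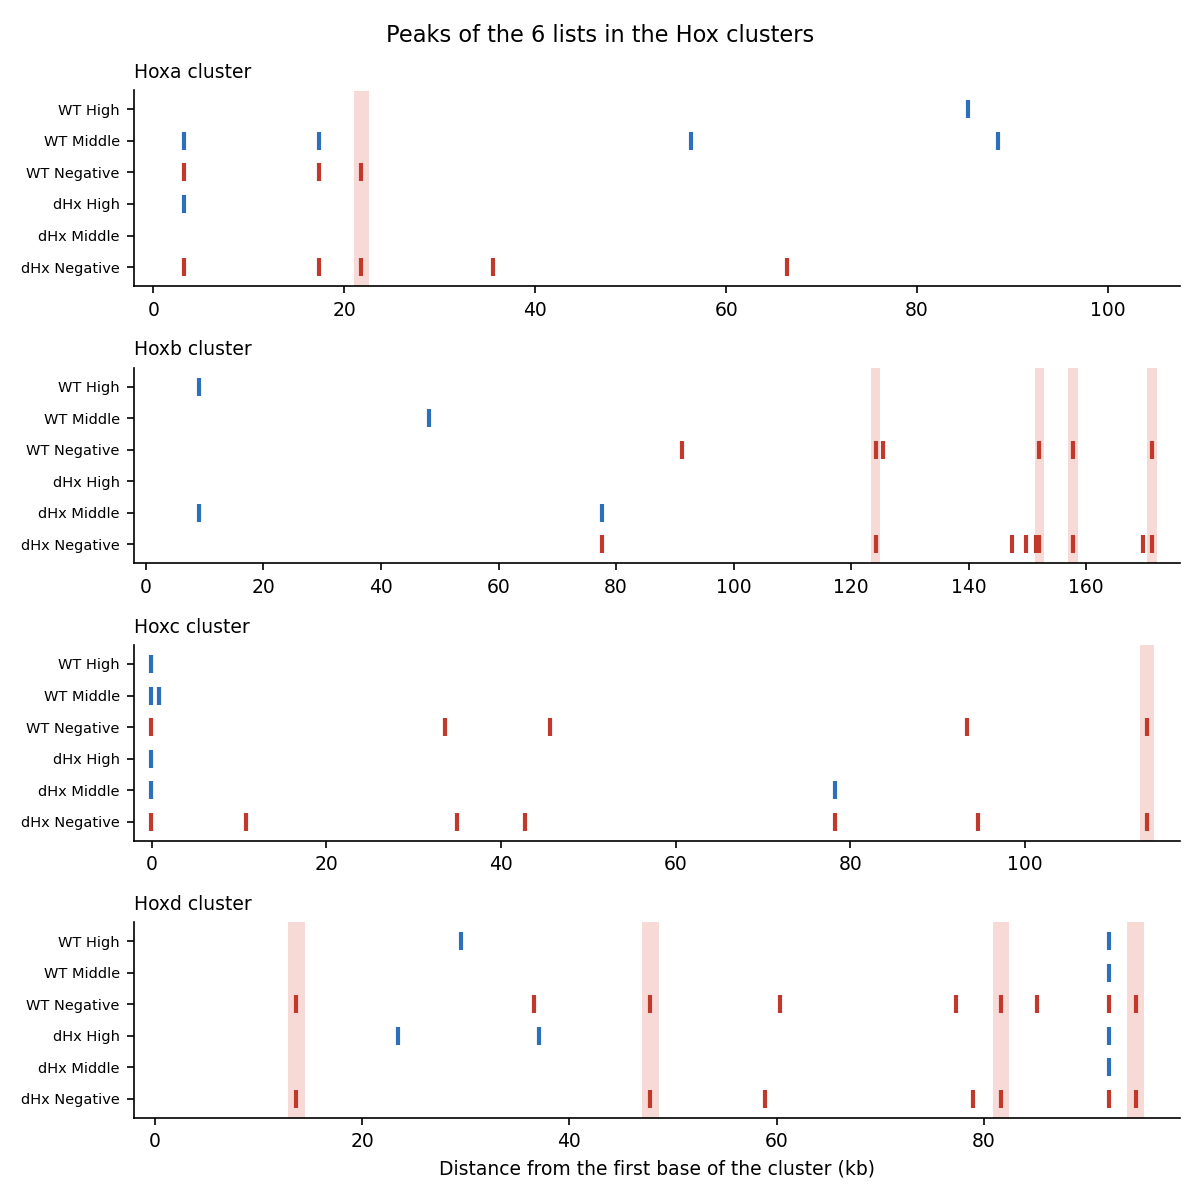
Peaks of the 6 lists in the 4 Hox clusters, drawn by distance in kb from the first base of each cluster (horizontal axis), 1 row per list; red ticks are Negative lists, blue ticks High and Middle lists, and shaded bands mark the 10 members. Red ticks fill the rows of both Negative lists, with 23 and 28 regions, while no other row holds more than 8.

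Genes of lateral, cardiac and posterior mesoderm had 24 members among 335 regions (7.16%, 4.64 to 10.5%), spread over 16 of 40 genes. Meis2, a homeobox cofactor, had 4 of 29. Its strongest member (chr2:116059847-116060737), inside the gene, scored 16.3 in WT Negative and 9.17 in dHx Negative. Prrx1 had 3 of 10 regions as members, and none of its 10 regions was FoxA2-positive in both genotypes. The Prrx1 member at the promoter (chr1:163313227-163313721) scored 15.1 and 4.55, so it ranked at percentile 80.7 in WT Negative and 35.3 in dHx Negative. Hand1, a factor of lateral and cardiac mesoderm, had 9 regions, of which 6 were in WT Negative, 4 in dHx Negative, 1 in dHx Middle and none in WT High, WT Middle or dHx High. The 1 Hand1 region in both Negative lists, a member inside the gene (chr11:57831573-57832280), scored 5.09 and 14.5.

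Several T-box and cardiac factors had a member at a distance or inside the gene. For Tbx5, a factor of the heart and forelimb, a member 30.3 kb away (chr5:119765793-119766175) scored 22.8 in WT Negative and 3.74 in dHx Negative. For Nkx2-5, a cardiac homeobox factor, a member 6.93 kb away (chr17:26831237-26831734) scored 9.21 and 16.8. Tbx18, Mef2c, Tbx3, Msx1, Isl1, Wnt2 and Tcf21 had 1 or 2 members each. Those of Isl1, Wnt2 and Tcf21, and 1 of the 2 of Mef2c, lay inside or overlapped the gene. The list kept an interval above the share of all regions with members that reached the floors, with 9 of 335 (2.69%, 1.24 to 5.04%) against 1.16%. With only members at or above both medians it was 3 of 335 (0.896%, 0.185 to 2.59%) against 0.636%, and the interval then held the share of all regions.

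Paraxial and intermediate mesoderm genes had 10 members among 192 regions (5.21%, 2.53 to 9.37%) and primitive streak genes 11 among 193 (5.70%, 2.88 to 9.97%). The interval of the streak list held the share of all regions with every gene within 100 kb counted (4.12%, 2.60 to 6.17%), with genes within 20 kb only (4.43%, 1.80 to 8.92%), without bins over 50 regions, and with members at or above both medians or the floors. Lef1, a transcription factor of the Wnt pathway, had 3 of 21, with the strongest inside the gene (chr3:131155592-131155975) at 7.08 and 8.19. Foxc1, a forkhead factor of somite and head mesoderm, had 2 of 10, and Ripply2, a regulator of somite borders, had 1 that covers its promoter. Eomes, a T-box factor of the streak that also acts in endoderm, had 2 of 18, at 44.9 and 91.1 kb from the gene. Evx1, a homeobox gene of the posterior streak, had 2 of 12. Lefty2, a Nodal antagonist of nascent mesoderm, had 2 of 4, both within 3.85 kb of the gene. Gsc, a homeobox gene of the anterior streak, had 1 of 17, which scored 12.6 and 8.19.

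Blood and endothelium genes had 10 members among 198 regions (5.05%, 2.45 to 9.09%), an interval that holds the 2.82% of all regions. Cdh5, the cadherin of endothelial junctions, had 3 of 12, the strongest (chr8:104028609-104028913) 72.7 kb from the gene with scores of 12.6 in WT Negative and 16.8 in dHx Negative. Flt1, a VEGF receptor, had 2 of 17, and Cbfa2t3, a corepressor of blood progenitors, 2 of 5. Egfl7, a secreted endothelial protein, had 1 of 7, which scored 4.16 and 17.9.

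Neural plate and ectoderm genes had 21 members among 408 regions (5.15%, 3.21 to 7.76%) over 17 of 50 genes. Zic1 had 2 of 7 regions, besides the promoter member that was nearer to Zic4, with scores of 5.09 and 6.30 in the member 6.83 kb from the gene. Over its 7 regions Zic1 had 6 in WT Negative and 4 in dHx Negative, against 1, 1, 0 and 2 in WT High, WT Middle, dHx High and dHx Middle. Sox1, an early neural marker, had 2 of 7, 1 of them at the promoter, and Pax6, a homeobox factor of eye and brain, had 2 of 15. Dlx6, a homeobox gene of the ectoderm border, had 2 of 6. The 3 POU genes Pou3f1, Pou3f2 and Pou3f3 had 1 each. These members had a median mean percentile of 27.4, and 1 of 21 reached both medians. Among members that reached the floors 4 of 408 regions were left, 0.845 times the share of all regions, and without bins of 1 Mb with over 50 union regions the interval (14 of 295, 2.62 to 7.83%) held the share of all regions, 3.08%.

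Epiblast genes had 5 members among 188 regions (2.66%, 0.869 to 6.10%), a share next to that of all regions. The 5 were single members at Pou5f1, Utf1, Foxd3, L1td1 and Pou3f1, and the Pou5f1 member, 0.640 kb from this pluripotency gene, scored 10.3 and 7.23. All 4 members of the germ cell list belonged to Tfap2c, which encodes an AP-2 factor of germ cells, trophoblast and ectoderm. It had 4 members among 9 regions, in a run of 61.2 kb where 4 of 6 regions were members. The strongest (chr2:172577014-172577678) scored 11.5 in WT Negative and 16.8 in dHx Negative, and a member inside the gene (chr2:172550355-172551087) 8.13 and 5.41. All 9 Tfap2c regions were in the dHx Negative list and 6 in the WT Negative list, against 2 in each of the other lists, and none was FoxA2-positive in both genotypes.

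Loci of cells that the gate or the dissection was meant to remove were counted in the same way. With the nearest gene and all members counted, only visceral endoderm among these lists had an interval that did not hold 2.82%, and it lay below. Definitive endoderm genes had 5 among 337 regions (1.48%, 0.483 to 3.43%), while 82 of the 337 (24.3%, 19.8 to 29.3%) were FoxA2-positive in both genotypes. Those 5 members belonged to Eomes, Gsc, Cxcr4 and Krt19. Visceral endoderm genes had 1 member among 219 (0.457%, 0.0116 to 2.52%), in Lrp2, a receptor for endocytosis, and 55 FoxA2-positive regions (25.1%, 19.5 to 31.4%). When every gene within 100 kb was counted instead of the nearest, visceral endoderm genes had 11 members among 527 regions (2.09%, 1.05 to 3.70%), an interval that holds 2.82%. Node and notochord genes had 10 among 263 (3.802%, 1.84 to 6.88%), among them Nog with 2 of 16, Sox9 with 2 of 21 and Lefty2. Extraembryonic ectoderm genes had 10 among 188 (5.32%, 2.58 to 9.56%), of which 4 were those of Tfap2c, and the rest lay at Eomes, Gata3, Hand1 and Bmp8b. Members that reached the floors were 7 of these 188 (3.72%, 1.51 to 7.52%), against 1.16% of all regions. The 4 Tfap2c members, which lie in 1 run of 61.2 kb, were among these 7, so the interval counts regions of 1 locus as separate. With every gene within 100 kb counted the list had 18 of 372 (4.84%, 2.89 to 7.54%). The part of remaining extraembryonic cells in these members was not tested. Ubiquitous genes had 1 among 93 (1.08%, 0.0272 to 5.85%), near Ppia.

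Of the signalling lists, Wnt genes had 20 members among 385 regions (5.19%, 3.20 to 7.91%), over ligands, receptors and targets. Among ligands, Wnt10a had 3 of 10 in a run shared with its neighbours Cdk5r2 and Cryba2, where 5 of 17 regions were members, and Wnt2b and Wnt5b had 2 each. The receptor gene Fzd10 had 3 of 11, the strongest (chr5:128542020-128542503) 58.6 kb away with scores of 8.13 in WT Negative and 13.4 in dHx Negative. Axin2, a feedback target of the pathway, and the factor Tcf7l1 had 1 each. In the Wnt list 10 of 385 regions (2.60%, 1.25 to 4.72%) were members that reached the floors, against 1.16% of all regions. The interval held the share of all regions with members at or above both medians (5 of 385), without bins of 1 Mb with over 50 union regions (8 of 166) and with every gene within 100 kb counted (32 of 803, 3.99%, 2.74 to 5.58%). BMP and TGF-beta genes had 12 among 309 (3.88%, 2.02 to 6.69%), with 2 each at the ligand gene Bmp2, the antagonist gene Nog and the inhibitor gene Smad6. The receptor gene Bmpr1b had 1 of 15, which scored 13.8 and 10.2. FGF and VEGF genes had 6 among 269 (2.23%, 0.823 to 4.79%), close to the share of all regions.

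MicroRNA genes lay near few regions of any class counted, and the interval of members held the share of all union regions. A RefSeq hairpin lay within 1 kb of 13 members (0.482%, 0.257 to 0.823%), against 0.293% of all union regions, 0.609% of regions in all 6 lists and 0.1603% of FoxA2-positive regions. Besides Mir10a these included Mir290a, the first of a cluster known from pluripotent cells, 450 bp from a member that scored 10.3 in WT Negative and 2.97 in dHx Negative. Another member lay 429 bp from Mir200c and 834 bp from Mir141, microRNAs known from epithelia, and scored 3.28 and 7.23.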

How the data were processed

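The authors' 6 deposited peak lists, on mm10, were the only data used. The submitters' processing notes name STAR 2.5.2a and MACS2 without roles or settings. The peak names hold the word Pooled, so each list was read as made from the 2 samples of a group. The deposited score has no column name and was taken from its values to be a −log10 p or q. Total reads per sample are not stated in these sources, so relative depth came from a Poisson mean fitted to the steps between the 40 lowest distinct scores of each list.

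Lines with the same start and end were merged to 1 peak with their highest score, and percentiles were taken over each whole list. Gene positions were those of the RefSeq table (GRCm38.p6), and the promoter table holds no windows on chromosome 18. Members, gene lists and motifs were chosen with earlier results of these data known. Named genes were Foxa2, the 15 genes with the most members (10 of the 20 genes with 4 members, ties going to the higher summed percentile) and up to 4 per list with the most members, and single regions were the 20 members with the highest mean percentile, the 10 widest and the highest of each named list gene. Other listed genes, Myl7, Mir10a and the microRNAs were named after their values were seen. A listed gene that enters the list totals is not reported by name here. The planned sequence windows around peaks needed a genome, so promoter windows replaced them. Scripts (Python 3.11.15, pandas 2.3.3, scipy 1.17.1) were tested on simulated data.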

Additional observations from a re-analysis of the deposited data

How the results depend on the processing

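The number of members, 2695, was 2490 with peaks within 500 bp merged, 2832 when a High or Middle peak had to cover at least 50% of the shorter peak, 2211 with lists of equal length and 2757 with X and Y. It was 1703 with only peaks at or above the median score in all 6 lists, 624 with that limit in the Negative lists only, 1115 at or above the floors of the other lists, and 1501 without bins of 1 Mb with over 50 union regions. Since those bins hold 49.1% of all regions, a limit of 150 was added after seeing the data and left 2536.

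The share inside genes was 45.4% without bins over 50 regions and 50.3% for members at or above the floors. The share within 1 kb of a transcription start was 6.70% for members at or above both medians and 8.17% at or above the floors, a setting added after seeing the data for position and genes. Relative to all assigned regions, members at or above both medians were 2.58 times as frequent for Hox genes, 1.41 for lateral mesoderm, 0.386 for neural plate, and 0 for visceral endoderm and for ubiquitous genes. At or above the floors the ratios were 2.83 for Hox genes, 0.845 for neural plate and 0 for ubiquitous genes, which were also at 0 without bins over 50 regions. These settings leave fewer regions, and the cause of each shift was not tested.

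No paired analysis was possible because each list pools the 2 samples of its group, and leaving out a replicate was not possible for the same reason. The 500-base sequence window was not run. Depth differed between lists, so absence from a list is not shown to be closed chromatin.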
